A study of Mus musculus with 10 samples.

Results

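Flow-sensing endothelial genes encode the proteins with which the inner lining of blood vessels senses and answers the drag of flowing blood. The 9 genes described here were chosen by name among the 54532 genes of the deposited table, as known shear-stress sensors, shear-stress targets and vascular connexins, by a rule that names them and uses none of their measured values, although earlier results of these data were known when they were chosen. They are the mechanosensitive channels Piezo1 and Trpv4, the kinase gene Mapk7 (ERK5), the transcription factor genes Klf2 and Klf4, the anticoagulant receptor gene Thbd (thrombomodulin), and the connexin genes Gja1 (Cx43), Gja4 (Cx37) and Gja5 (Cx40). Each name matched exactly 1 row, and all 9 genes passed the filter on low values (a mean of at least 0.1 FPKM over the 10 lungs, where FPKM is the number of fragments scaled by gene length and library size).

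Endothelial cells sense flow through ion channels, junctional complexes and surface receptors, and laminar shear stress then drives a kinase cascade from MEKK3 through MEK5 to ERK5, which activates MEF2 factors and induces KLF2 and KLF4. These factors switch on anticoagulant, vasodilator and anti-inflammatory genes, among them thrombomodulin and endothelial nitric oxide synthase. Connexins form the gap junctions between endothelial cells, with Cx37 and Cx40 typical of arterial endothelium and Cx43 shared with smooth muscle, fibroblasts and other cells.

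The lungs came from wild-type C57BL/6J mice that had their operation on postnatal day 7 (P7) and were collected at P30. In the group with increased pulmonary flow (IPF, n = 5), the abdominal aorta was joined by needle puncture with the neighbouring inferior vena cava, and this aortocaval fistula returns arterial blood to the right heart and so to the lungs. The sham group (n = 5) had the same laparotomy and vessel exposure without the puncture. Each library came from the whole lung of 1 mouse, so fewer cells of a type and less RNA per cell cannot be told apart in any value below, and p-values measure the spread between these lungs.

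The reads on genes, recovered from the FPKM values, ranged from 15483046 to 19026843 per library. Between libraries of a group, chi-square per degree of freedom over genes was 4.78 to 37.3, above sampling noise, so none was a copy of another. By this measure 3 lungs stood apart from the rest of their group. Sham replicate 1 differed from the other sham lungs by 17.3 to 25.9, while those differed from each other by 4.78 to 12.0, and it also had 25486 genes above 0 against 22475 to 23575 in the other 9 lungs. IPF replicates 3 and 5 differed from the other IPF lungs by 21.0 to 37.3, while IPF replicates 1, 2 and 4 differed from each other by 9.5 to 13.8. The labels do not give sex, and the methods state that pups of both sexes were used, yet Xist was at 26.8 to 43.2 FPKM in the IPF lungs and at 0.0301 to 0.0767 FPKM in the sham lungs, and Ddx3y of the Y chromosome was at 0 in every IPF lung and at 14.3 to 21.4 FPKM in the sham lungs. Of 13 circadian clock genes, 12 differed between the groups (3 higher and 9 lower in IPF, limma adjusted p under 0.05), where 3.71% of all tested genes were called higher and 2.14% lower. The effect of the fistula therefore cannot be told apart from that of sex or of the clock in any comparison below.

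The tissue label held against its markers, with Sftpc and the other alveolar type 2 genes summing to 11290 to 18570 FPKM and 10 pan-endothelial genes to 1362 to 1722 FPKM across the 10 lungs. The 9 flow-sensing genes spanned a wide range of abundance when compared per length. Thbd was highest with a mean of 367.7 ± 22.9 FPKM (SD, n = 10), followed by Klf2 with 131.2 ± 15.6 and Klf4 with 63.6 ± 11.8 FPKM. Gja4 was at 49.7 ± 10.1 FPKM, a level that overlapped that of Klf4, which was the higher of the pair in 8 of 10 lungs. Piezo1 (13.5 ± 1.89 FPKM), Gja5 (10.9 ± 3.57), Gja1 (8.69 ± 1.91) and Mapk7 (7.51 ± 0.646) formed a run in which each neighbour overlapped the next. Trpv4 was lowest in every lung, at 1.61 ± 0.326 FPKM.

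The 3 connexin genes were higher in the IPF lungs, while none of the sensors, the kinase, the transcription factors or thrombomodulin passed the test in either direction. Gja5 rose 1.70-fold, Gja1 1.39-fold and Gja4 1.36-fold, and the changes of the 6 other genes lay between -0.23 (Trpv4) and 0.17 (Mapk7) on the log2(FPKM + 0.1) scale. Genes were tested with limma on that scale with Benjamini-Hochberg adjustment over 20448 genes, with a limit of 0.05 on the adjusted p for a call. At this limit 3 of the 9 genes were called, all higher, where 5.85% of all tested genes were called (3.71% higher and 2.14% lower). Leaving out 1 lung gave 0 to 3 calls among the 9. The median log2 fold change was -0.05 over the 9 genes and 0.0016 over all tested genes, whose 5th and 95th percentiles were -0.69 and 0.66. With the study's further limit of an absolute log2 fold change above 1, which 1.14% of all genes passed, none of the 9 genes was called.

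**Figure D1:**
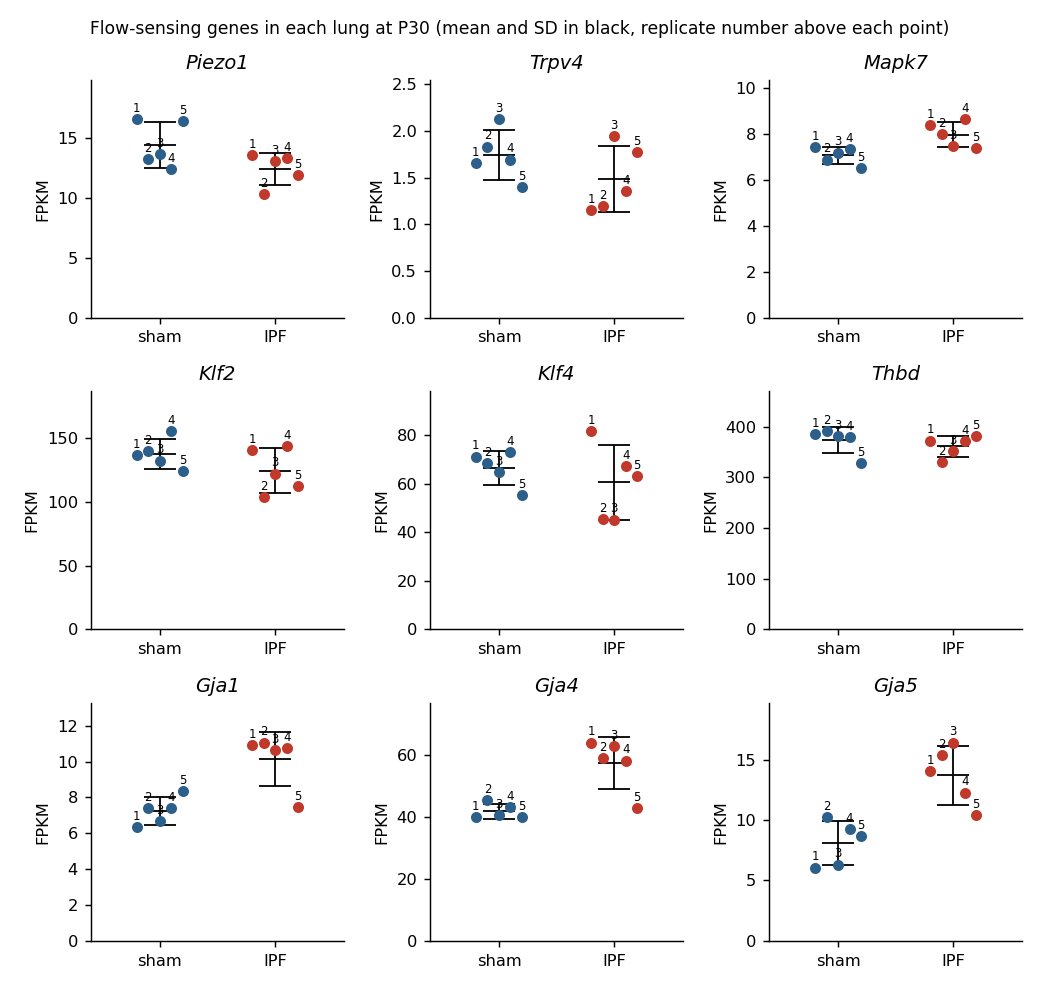
FPKM of each of the 9 flow-sensing genes (linear axis from 0) in the 5 sham and the 5 IPF lungs, with 1 point per lung numbered by replicate and the mean and SD in black. The IPF lungs lay above the sham lungs in 5 of 5 cases for Gja5 and in 4 of 5 for Gja1, Gja4 and Mapk7, where IPF replicate 5 was the exception, and at most 1 IPF lung lay above the sham lungs for the other 5 genes.

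The sensors were examined first. Piezo1 (ENSMUSG00000014444, chromosome 8 of GRCm38, 122481698 to 122551329, minus strand) encodes the stretch- and shear-gated cation channel through which endothelial cells admit calcium when flow starts. Its levels in IPF replicates 1 to 5 were 13.6, 10.3, 13.1, 13.4 and 11.9 FPKM, and those in sham replicates 1 to 5 were 16.6, 13.2, 13.7, 12.4 and 16.4 FPKM. IPF replicates 2 and 5 lay below every sham lung, and the other IPF lungs lay among them. The group means were 12.5 ± 1.35 and 14.5 ± 1.91 FPKM (SD, n = 5 each). The difference, -0.21 on the log2 scale (95% confidence interval -0.44 to 0.01), did not pass the test (limma adjusted p = 0.283). The gene overlaps Ctu2 on the opposite strand, which was at 2.39 and 2.33 FPKM in the groups.

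Trpv4 (ENSMUSG00000014158, chromosome 5, 114622152 to 114658421, minus strand), a cation channel that opens to swelling, warmth and shear, rested on 80 to 150 reads per lung. It was at 1.15, 1.19, 1.95, 1.36 and 1.77 FPKM in IPF replicates 1 to 5 and at 1.65, 1.83, 2.12, 1.69 and 1.40 FPKM in sham replicates 1 to 5. IPF replicates 1, 2 and 4 were lower than all sham lungs, and replicates 3 and 5 were not. The log2 fold change was -0.23 with a 95% confidence interval of -0.59 to 0.13, the widest of the 9 genes apart from that of Gja5 (limma adjusted p = 0.486).

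Mapk7 (ENSMUSG00000001034, chromosome 11, 61488812 to 61494406, minus strand) encodes ERK5, the kinase that links flow to KLF2 and KLF4. Its levels were 8.36, 7.97, 7.46, 8.62 and 7.37 FPKM in IPF replicates 1 to 5 and 7.43, 6.87, 7.17, 7.31 and 6.51 FPKM in sham replicates 1 to 5. Of the 5 IPF lungs 4 were above every sham lung, the exception being replicate 5, and the groups overlapped. The log2 fold change of 0.17 (95% confidence interval 0.03 to 0.31) had an unadjusted limma p of 0.0243 and an adjusted p of 0.171, so Mapk7 was not called, although the two-sided exact permutation test of this gene alone gave p = 0.0159. The gene overlaps Mfap4, a microfibril gene of the opposite strand at 799.6 FPKM in IPF and 630.5 FPKM in sham (log2 fold change 0.30, limma adjusted p = 0.479), and without a stated strand setting reads of the shared stretch cannot be assigned with certainty.

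KLF2 is the factor most closely tied to laminar shear stress in endothelium. Klf2 (ENSMUSG00000055148, chromosome 8, 72319033 to 72321656, plus strand) was at 140.8, 103.8, 122.4, 143.7 and 112.4 FPKM in IPF replicates 1 to 5 and at 136.8, 140.1, 132.6, 155.8 and 124.1 FPKM in sham replicates 1 to 5. IPF replicates 2, 3 and 5 were below every sham lung, and replicates 1 and 4 were among the highest of the 10. The means were 124.6 ± 17.4 and 137.9 ± 11.7 FPKM (SD, n = 5 each), and the log2 fold change of -0.15 (95% confidence interval -0.37 to 0.07) did not pass the test (limma adjusted p = 0.444). The upper end of this interval corresponds to a rise of no more than 1.05-fold in whole-lung RNA. The stretch before the start of Klf2 is shown because Klf2 is known as a target of the MEF2 factors that ERK5 activates. Its 221 bases at chr8:72318812-72319032 of GRCm38.p6, taken from RefSeq and ending where the gene starts in the deposited table, are given 5′ to 3′ with the letters that match the MEF2 site in capitals.
Klf2: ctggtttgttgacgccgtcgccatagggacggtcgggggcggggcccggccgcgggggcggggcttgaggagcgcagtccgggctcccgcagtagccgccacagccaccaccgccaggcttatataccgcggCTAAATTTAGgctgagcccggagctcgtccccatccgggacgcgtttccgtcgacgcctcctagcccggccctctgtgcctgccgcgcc
The match lies 118 to 109 bases before the RefSeq start and reads the same on both strands. A match to the MEF2 site was present in 0.557% of 32851 RefSeq windows (250 bases before to 50 after a start, both strands searched), and Klf2 was the only 1 of the 8 flow-sensing genes with a window that held it.

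Klf4 (ENSMUSG00000003032, chromosome 4, 55527143 to 55532466, minus strand) encodes the related factor that shares most endothelial targets with KLF2 and is also made in airway epithelium and myeloid cells. Its levels were 81.8, 45.5, 45.2, 67.5 and 63.1 FPKM in IPF replicates 1 to 5 and 71.2, 68.4, 64.8, 72.9 and 55.4 FPKM in sham replicates 1 to 5. The highest lung of all and the lowest pair, IPF replicates 2 and 3, belonged to the IPF group, whose coefficient of variation was 25.7% against 10.4% in sham. The log2 fold change of -0.17 had a 95% confidence interval of -0.51 to 0.18 (limma adjusted p = 0.615).

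Thrombomodulin binds thrombin on the vessel wall and turns it towards activating protein C. Thbd (ENSMUSG00000074743, chromosome 2, 148404466 to 148408188, minus strand) ranked 60th by mean level among the tested genes, at 373.0, 330.4, 351.9, 372.0 and 381.9 FPKM in IPF replicates 1 to 5 and 386.1, 391.9, 382.3, 379.6 and 328.1 FPKM in sham replicates 1 to 5. Sham replicate 5 was the lowest of the 10 lungs, and the groups overlapped. With 18631 to 26165 reads per lung, its log2 fold change was -0.05 (95% confidence interval -0.22 to 0.13, limma adjusted p = 0.811), an interval that spans a level 0.859 to 1.09 times that of sham.

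The connexins differed from the genes above in that each of them passed the limma test after adjustment. Gja5 (ENSMUSG00000057123, chromosome 3, 96904693 to 97077416, plus strand) encodes Cx40, which joins endothelial cells of arteries and is also made by the atria. It was at 14.0, 15.3, 16.4, 12.3 and 10.4 FPKM in IPF replicates 1 to 5 and at 6.06, 10.2, 6.32, 9.22 and 8.67 FPKM in sham replicates 1 to 5. All 5 IPF lungs were above all 5 sham lungs, by a narrow margin between IPF replicate 5 and sham replicate 2, and a full separation was found in 7.29% of all tested genes (4.52% higher and 2.77% lower in IPF). Gja5 was the only 1 of the 9 genes with such a separation. The means of 13.7 ± 2.41 and 8.10 ± 1.83 FPKM (SD, n = 5 each) gave a log2 fold change of 0.76 (standard error 0.17, 95% confidence interval 0.40 to 1.13, limma adjusted p = 0.0211), and the two-sided exact permutation p of 0.00794 is the smallest that 5 against 5 lungs can give. Gja5 overlaps Gpr89 on the opposite strand, which was at 3.64 and 3.90 FPKM.

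Gja4 (ENSMUSG00000050234, chromosome 4, 127311421 to 127314039, minus strand) encodes Cx37, the other connexin of arterial endothelium. Its levels were 64.0, 59.1, 62.9, 58.2 and 42.9 FPKM in IPF replicates 1 to 5 and 40.1, 45.5, 40.7, 43.2 and 39.9 FPKM in sham replicates 1 to 5. IPF replicates 1 to 4 were above every sham lung by at least the whole range of the sham group, and IPF replicate 5 lay inside that range. The means were 57.4 ± 8.48 and 41.9 ± 2.43 FPKM (SD, n = 5 each). On the log2 scale the rise was 0.44 (standard error 0.10, 95% confidence interval 0.22 to 0.67, limma adjusted p = 0.0270). The two-sided exact permutation test of this gene alone gave p = 0.0238, above the 0.0159 of Mapk7.

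Gja1 (ENSMUSG00000050953, chromosome 10, 56377330 to 56402513, plus strand) encodes Cx43, the most widespread connexin of the body. It was at 10.9, 11.1, 10.6, 10.7 and 7.44 FPKM in IPF replicates 1 to 5 and at 6.34, 7.40, 6.69, 7.40 and 8.34 FPKM in sham replicates 1 to 5. The pattern was that of Gja4, with IPF replicates 1 to 4 close together above every sham lung and replicate 5 among the sham lungs. The means of 10.2 ± 1.52 and 7.24 ± 0.771 FPKM (SD, n = 5 each) gave a log2 fold change of 0.47 (standard error 0.12, 95% confidence interval 0.22 to 0.73, limma adjusted p = 0.0353). The two-sided exact permutation test of this gene alone gave p = 0.0159, as for Mapk7.

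The calls of the connexins were close to the limit and depended on single lungs and on the processing. Without the variance trend Gja1 (limma adjusted p = 0.0666) and Gja4 (0.0567) were not called, with no filter on low values Gja1 was not (0.0577), and after quantile normalization Gja4 was not (0.0622), while Gja5 was called in these 3 fits (up to 0.0456). Gja1 was no longer called without any 1 of 8 lungs (all but IPF replicate 5 and sham replicate 5), and Gja4 was no longer called without any 1 of another 8 (all but IPF replicate 5 and sham replicate 2), with limma adjusted p up to 0.0892 and 0.0690. Gja5 lost its call without IPF replicate 1, IPF replicate 2 or sham replicate 3, with limma adjusted p up to 0.0584. Without IPF replicate 5, which stood apart and was the lowest IPF lung for all 3 genes, the limma adjusted p fell to 0.00167 for Gja1, 0.000434 for Gja4 and 0.00949 for Gja5. Without sham replicate 1, another library that stood apart, it was 0.0750 for Gja1, 0.0551 for Gja4 and 0.0435 for Gja5, and without IPF replicate 3 it was 0.0683 for Gja1, 0.0567 for Gja4 and 0.0446 for Gja5. The log2 fold change stayed positive throughout, from 0.43 to 0.58 for Gja1, from 0.40 to 0.54 for Gja4 and from 0.67 to 0.86 for Gja5.

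**Figure D2:**
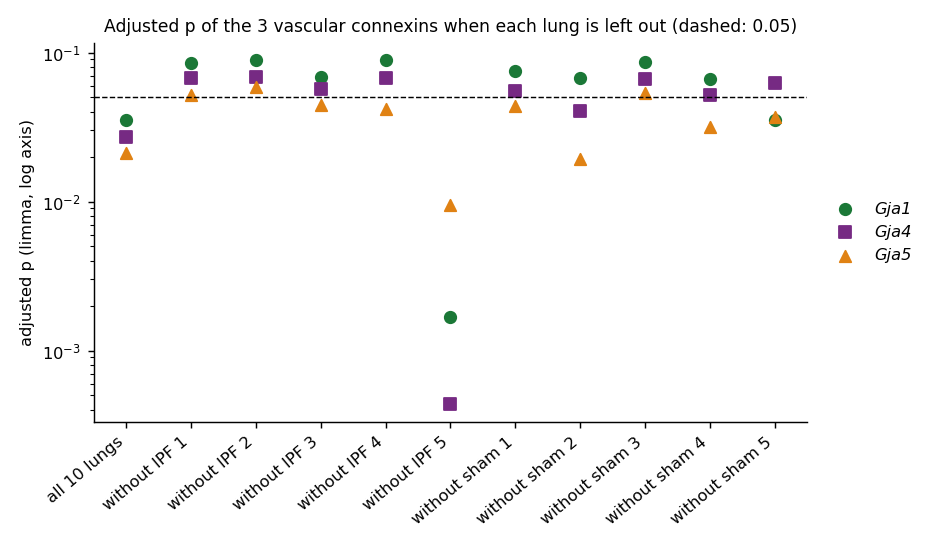
Benjamini-Hochberg adjusted p from limma (log axis) of Gja1, Gja4 and Gja5 with all 10 lungs and with each lung left out in turn, with a dashed line at 0.05. The points lie on both sides of the line, from 0.000434 (Gja4) to 0.0892 (Gja1), and the lowest value of each gene is the fit without IPF replicate 5.

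The stretches before the starts of the 3 connexin genes are shown since these genes were higher together. Each is the 250 bases before the RefSeq start in GRCm38.p6, at chr3:97032152-97032401 (plus strand) for Gja5, chr4:127314040-127314289 (minus strand) for Gja4 and chr10:56377050-56377299 (plus strand) for Gja1, written 5′ to 3′ on the strand of the gene. The Gja5 stretch lies inside the longer span that the deposited table gives this gene. Capitals mark the short cyclic AMP response motif TGACG and the KLF motif CCACCC, or their reverse complements CGTCA and GGGTGG, and no marked pair overlaps.
Gja5: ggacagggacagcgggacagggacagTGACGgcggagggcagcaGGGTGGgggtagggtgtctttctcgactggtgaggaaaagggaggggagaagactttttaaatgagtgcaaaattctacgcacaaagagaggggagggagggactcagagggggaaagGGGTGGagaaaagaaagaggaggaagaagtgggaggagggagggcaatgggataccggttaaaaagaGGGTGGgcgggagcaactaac
Gja4: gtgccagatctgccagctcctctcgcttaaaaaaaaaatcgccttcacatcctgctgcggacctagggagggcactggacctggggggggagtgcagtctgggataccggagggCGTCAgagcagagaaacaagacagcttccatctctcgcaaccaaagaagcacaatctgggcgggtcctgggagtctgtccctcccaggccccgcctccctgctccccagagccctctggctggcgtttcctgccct
Gja1: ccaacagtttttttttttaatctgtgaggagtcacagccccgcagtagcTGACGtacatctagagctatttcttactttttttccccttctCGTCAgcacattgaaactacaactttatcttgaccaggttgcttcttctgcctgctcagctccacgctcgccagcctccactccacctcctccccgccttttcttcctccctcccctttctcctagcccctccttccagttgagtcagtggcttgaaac
The cyclic AMP response motif occurred in all 3 connexin windows, at 1 place in Gja5 and Gja4 and at 2 in Gja1, and also in those of Klf2 and Klf4, so that 5 of the 8 flow-sensing genes with a window held it, against 20.8% of all windows. The KLF motif occurred at 3 places in Gja5 and at none in Gja4 or Gja1, and it was held by 4 of the 8 genes (Trpv4, Mapk7, Klf2 and Gja5) and by 31.5% of all windows. The shear stress element GAGACC was found in Piezo1 alone of the 8 (167 to 162 bases before the start, as its reverse complement) and in 16.4% of all windows, and the E-box CACGTG was found in Klf4 alone and in 7.15% of all windows. The CArG box was in none of the 8 and in 1.63% of all windows. A gene was counted if any of its windows held the motif, whereas the shares are of single windows, so the counts and shares differ in unit, also for the MEF2 site. These matches describe the letters of the windows only.

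The endothelial content of the lungs was examined beside the connexins. The summed level of the 10 pan-endothelial markers was 1518 to 1722 FPKM in the IPF lungs and 1362 to 1429 FPKM in the sham lungs, with no overlap. Without the abundant Cldn5, left out after the values were seen, the sums of the other 9 overlapped (1086 to 1274 FPKM in IPF and 1053 to 1124 FPKM in sham). Of the 10 markers 1 was called, where 5.85% of all tested genes were. It was the tight junction gene Cldn5, which went from 308.5 ± 42.8 FPKM in sham to 450.5 ± 20.7 FPKM in IPF (SD, n = 5 each), a rise of 0.56 in log2 (limma adjusted p = 0.0107), and voom on the recovered reads called 1 more higher, Tek. Of all tested genes voom called 1466, 842 of them higher, against 1196 and 759 by limma. At an unadjusted p under 0.05, which 19.5% of all tested genes reached in either direction, 3 of the 10 were higher and none lower. Tek was at 115.5 to 144.1 FPKM in IPF and 94.9 to 111.3 FPKM in sham (0.26 in log2, limma adjusted p = 0.0636), and Egfl7 at 91.4 to 108.3 FPKM and 65.5 to 95.7 FPKM (0.31 in log2, limma adjusted p = 0.119). Pecam1, at 171.8 ± 12.6 against 178.0 ± 11.4 FPKM (SD, n = 5 each), was the 1 marker of the 10 with a negative difference, and the median of the list was 0.10 in log2. Of the 6 other arterial markers (Efnb2, Dll4, Hey1, Sox17, Bmx and Cxcl12) none was called by limma, by voom on the recovered reads or at an unadjusted p under 0.05, their median log2 fold change was 0.02, and their sums overlapped (180.9 to 224.6 FPKM in IPF and 177.4 to 203.5 FPKM in sham). IPF replicate 5 had the highest pan-endothelial sum of the 10 lungs and the highest arterial sum, and the lowest connexin levels of its group.

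When each lung was centred on its mean log2 level of the 10 pan-endothelial markers, which shifted the median of all tested genes to -0.15, the log2 fold changes were 0.61 for Gja5, 0.33 for Gja1 and 0.29 for Gja4. None of the 3 was then called (limma adjusted p = 0.0507 for Gja5, 0.151 for Gja1 and 0.146 for Gja4) and the log2 fold change of Mapk7 was 0.02, against 0.17 before. Of all tested genes 2427 were called after this centring, 409 of them higher in IPF, against 1196 and 759 before. The part of endothelial content in the connexin levels was not otherwise tested.

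**Figure D3:**
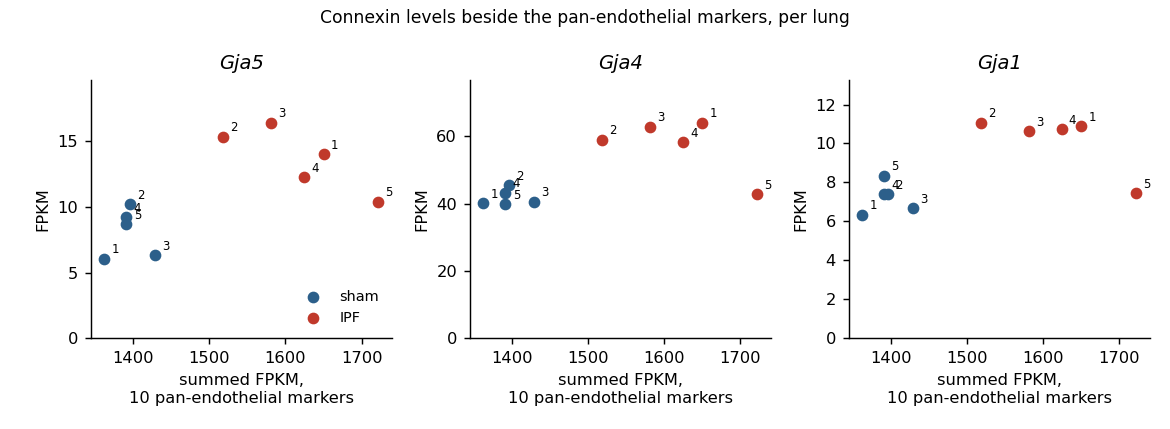
FPKM of Gja5, Gja4 and Gja1 (vertical axes, from 0) against the summed FPKM of 10 pan-endothelial markers (horizontal axis, not from 0) in the 5 sham and the 5 IPF lungs, numbered by replicate. The sums run from 1362 to 1429 in sham and from 1518 to 1722 in IPF, and IPF replicate 5, at the highest sum, has the lowest connexin levels of the IPF lungs.

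**Figure D4:**
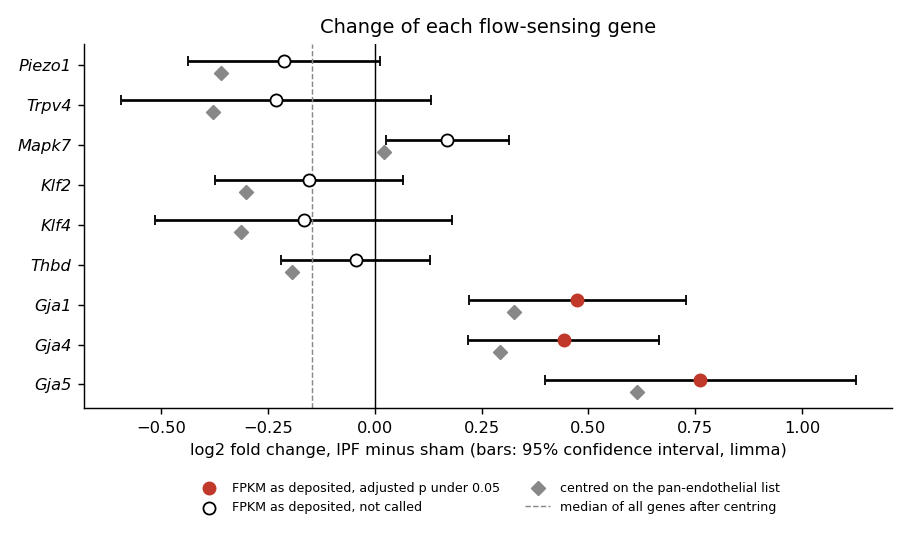
Log2 fold change of each flow-sensing gene, IPF minus sham, from limma with its 95% confidence interval (circles), and after centring each lung on the pan-endothelial markers (diamonds), with the median of all genes after centring as a dashed line. The intervals of the 3 connexins and of Mapk7 lie above 0, and only the 3 connexins (filled) have an adjusted p under 0.05.

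Markers of other cells that make Cx43 or Cx40, and of other cells and states of the lung, were also compared, where 5.85% of all tested genes were called by limma (3.71% higher and 2.14% lower). With voom 1466 of all tested genes were called, 842 of them higher. None of 6 smooth muscle markers was called (sums of 114.2 to 234.7 FPKM in IPF and 142.7 to 181.7 FPKM in sham, the highest in IPF replicate 3 and the next IPF lung at 146.1). Of these 6, 5 had a negative difference, 1 of them with an unadjusted p under 0.05, and the median log2 fold change was -0.24. Of 5 fibroblast markers 3 had a positive difference and 2, Col1a1 (-0.20 in log2) and Col1a2 (-0.14), a negative one, with a median of 0.18. Their sums overlapped (189.6 to 316.4 FPKM in IPF and 226.1 to 277.3 FPKM in sham). Of the 5, 2 were called higher, Pdgfra (log2 fold change 0.35, limma adjusted p = 0.0213) and Lum (1.09, limma adjusted p = 0.0415). Neither was called after centring on the pan-endothelial markers (limma adjusted p = 0.102 for Pdgfra and 0.0635 for Lum). Pdgfra lost its call without IPF replicate 4 or sham replicate 2, and Lum without any 1 of 7 lungs (all but IPF replicates 1 and 5 and sham replicate 4). Pdgfra was also not called after quantile normalization, nor Lum without the variance trend, with a pseudocount of 1 or with no filter on low values. The summed level of 8 atrial cardiomyocyte markers ranged from 17.5 to 160.9 FPKM in IPF and from 27.3 to 145.8 FPKM in sham, with the high sums in IPF replicate 4 and sham replicate 3, and none of the 7 tested was called (5 differences positive, median log2 fold change 0.35). Of 5 general capillary markers 1 rose, the receptor gene Aplnr (0.82, limma adjusted p = 0.0103). Of 4 venous markers 1 was called higher, the factor gene Nr2f2 (0.37, limma adjusted p = 0.0280), which was not called after the centring (limma adjusted p = 0.141), without the variance trend, or without IPF replicate 1, 2 or 4 or sham replicate 2, 3 or 5. The venous transporter gene Slc6a2 had a log2 difference of -0.53 and was called lower by voom (adjusted p = 0.0306) but not by limma (adjusted p = 0.0928), and the median of the venous list was 0.02. None of 5 aerocyte markers was called by limma or voom, and of 4 lymphatic markers 0 were called by limma and 1 by voom, lower. None of the alveolar type 1 (5), alveolar type 2 (4), ciliated (5), macrophage (5) or tested basal (3) markers was called by limma, and voom called 1 alveolar type 1 and 1 alveolar type 2 marker lower.

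Neutrophil markers and immediate early genes were compared as well. None of the 4 neutrophil markers was called by limma or voom, but all 4 had positive differences (median log2 fold change 1.17), and 3 had an unadjusted p under 0.05, which 19.5% of all tested genes reached. Their sums overlapped, at 47.8 to 285.5 FPKM in IPF (median 65.0) and 11.8 to 67.9 FPKM in sham (median 35.0), so the upper end in IPF lay far above its median. Of 10 immediate early genes, which cells switch on within minutes of a stimulus, 2 were called higher, Junb and Ier2, with no overlap between the groups. Among all tested genes 3.71% were called higher, and 4.52% were higher in IPF without overlap. Junb was at 17.52 to 21.94 FPKM in IPF and 13.68 to 17.46 FPKM in sham (log2 fold change 0.31, limma adjusted p = 0.0479), and Ier2 at 42.7 to 51.3 FPKM and 34.4 to 41.8 FPKM (0.28, limma adjusted p = 0.0375). Neither was called after the centring (limma adjusted p = 0.142 for Junb and 0.165 for Ier2), without the variance trend or with no filter on low values, and Junb was also not called after quantile or median-of-ratios scaling. Junb lost its call in 7 and Ier2 in 8 of the 10 fits that left out a lung. At an unadjusted p under 0.05, 2 of the 10 were higher and 3 lower, and the median of the list was -0.0050. The part of these cells and states in the connexin result was not tested.

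The other genes of flow sensing were then compared by lists written from general knowledge. Of 82 listed genes 72 could be tested, and 12 were called (16.7%), 6 higher and 6 lower, where 5.85% of all tested genes were called (3.71% higher and 2.14% lower), with a median log2 fold change of -0.0055. Among 20 mechanosensor genes, 19 of them tested, 2 rose and none fell by limma, while voom on the recovered reads also called Pkd1 lower (-0.43 in log2, voom adjusted p = 0.0408, limma adjusted p = 0.102), a gene named after its values were seen. Of all tested genes voom called 1466, 842 of them higher. Kcnj2, the flow-activated inward rectifier potassium channel Kir2.1, was at 6.49 to 8.46 FPKM in IPF and 3.95 to 5.43 FPKM in sham (log2 fold change 0.61, limma adjusted p = 0.00787). Plxnd1, a semaphorin receptor that also senses shear, was at 27.3 to 38.9 FPKM in IPF and 23.3 to 27.0 FPKM in sham (0.42, limma adjusted p = 0.0224). Plxnd1 was not called when the lungs were centred on the pan-endothelial markers (limma adjusted p = 0.165), after quantile normalization, in the fit without variance trend, or without IPF replicate 1, 2 or 4 or sham replicate 2 or 3, where leaving out 1 lung gave up to 0.0614. The junctional sensors Pecam1 (-0.05 in log2, limma adjusted p = 0.753), Cdh5 (0.12, limma adjusted p = 0.486) and Kdr (0.24, limma adjusted p = 0.172), named after their values were seen, were not called, and 3 IPF lungs lay above every sham lung for Cdh5 and for Kdr.

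None of the 9 other genes of the MEKK3-ERK5-MEF2 cascade was called by limma or by voom. At an unadjusted p under 0.05, reached by 19.5% of all tested genes, there was 1, Mef2d (log2 fold change -0.18, limma adjusted p = 0.246), at 14.8 to 18.7 FPKM in IPF and 16.5 to 21.4 FPKM in sham. The list's median log2 fold change was -0.06.

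Of 14 genes that laminar flow raises in endothelium, 1 was called lower and none higher by limma, which called 3.71% of all tested genes higher and 2.14% lower. Of these 14, voom called 1 in each direction, and of all 20448 tested genes it called 1466, 842 of them higher. At an unadjusted limma p under 0.05, 3 were higher and 2 lower (19.5% of all tested genes reached this limit). The gene called higher by voom alone was Tek, the angiopoietin receptor (voom adjusted p = 0.0292), whose groups did not overlap, and neither did those of Hmox1 (0.30 in log2, limma adjusted p = 0.0520), as in 4.52% of all tested genes in that direction. The gene called lower was Timp3, an inhibitor of matrix metalloproteinases made by many lung cells, at 46.9 to 86.2 FPKM in IPF against 92.7 to 135.4 FPKM in sham (log2 fold change -0.84, limma adjusted p = 0.0137). Nos3, the endothelial nitric oxide synthase and a classic KLF2 target, was at 6.24 ± 0.848 against 6.51 ± 0.461 FPKM (SD, n = 5 each), with a difference of -0.07 on the log2 scale (limma adjusted p = 0.765), and, like Tek and Hmox1, is named here after its values were seen. The median of the list was -0.02.

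Genes that laminar flow lowers went both ways. Of 13, 3 rose and 2 fell, where 3.71% of all tested genes were called higher and 2.14% lower. Angpt2, the TIE2 ligand that loosens endothelium, was at 10.6 to 14.6 FPKM in IPF and 4.04 to 6.40 FPKM in sham (log2 fold change 1.24, limma adjusted p = 0.000338). Bmp4, a bone morphogenetic protein, was at 29.9 to 35.0 FPKM in IPF and 23.8 to 26.7 FPKM in sham (0.38, limma adjusted p = 0.00361). The tissue factor gene F3, which starts coagulation, fell to 10.2 to 15.2 FPKM from 23.4 to 28.1 FPKM (log2 fold change -1.08, limma adjusted p = 0.000347), and the matrix protein gene Ccn2, listed as Ctgf in the deposited table, changed by -1.30 on that scale (limma adjusted p = 0.0159). The chemokine gene Ccl2 was also called, on 0 to 5 reads per sham lung, and lost its call in 7 of the 10 fits that left out a lung, without the variance trend, with no filter on low values, and with a pseudocount of 1 or of 0.01. Its log2 fold change ranged from 0.52 to 2.90 over the alternatives, and it is named beyond the limit of 4 genes per list, after its values were seen. The median of the 13 genes was -0.0032.

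Among 9 genes of the protein C system and coagulation beside Thbd, 3 fell and none rose, where 2.14% of all tested genes were called lower and 3.71% higher. The thrombin receptor gene F2r (-0.35, limma adjusted p = 0.0347) and the plasminogen activator gene Plat (-0.36, limma adjusted p = 0.0462) were lower, and F2r was not called in 8 and Plat in 9 of the 10 fits that left out a lung. Neither was called without the variance trend or with no filter on low values. The median of this list was -0.09. Sums over coagulation genes were 226.6 to 273.9 FPKM in IPF and 270.0 to 305.6 FPKM in sham.

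Of the 17 other connexin genes 8 could be tested and 1 was called, higher in IPF, where 3.71% of all tested genes were called higher. Gjb1, the Cx32 gene typical of hepatocytes, Schwann cells and secretory epithelium, was at 0.397 to 1.61 FPKM in IPF and 0.0980 to 0.269 FPKM in sham, on 3 to 7 reads per sham lung (log2 fold change 1.87, limma adjusted p = 0.00729). Its log2 fold change ranged from 0.72 to 2.32 over the alternatives, all of which called it where it was tested. Gjb1 lies on the X chromosome, and the part of sex, which Xist and Ddx3y divide by group, was not tested. Gjc1 (Cx45), the connexin of smooth muscle and the most abundant of these 8, was at 6.66 to 9.47 FPKM in IPF and 7.94 to 9.70 FPKM in sham (log2 fold change -0.19, limma adjusted p = 0.280) and is named after its values were seen.

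**Figure D5:**
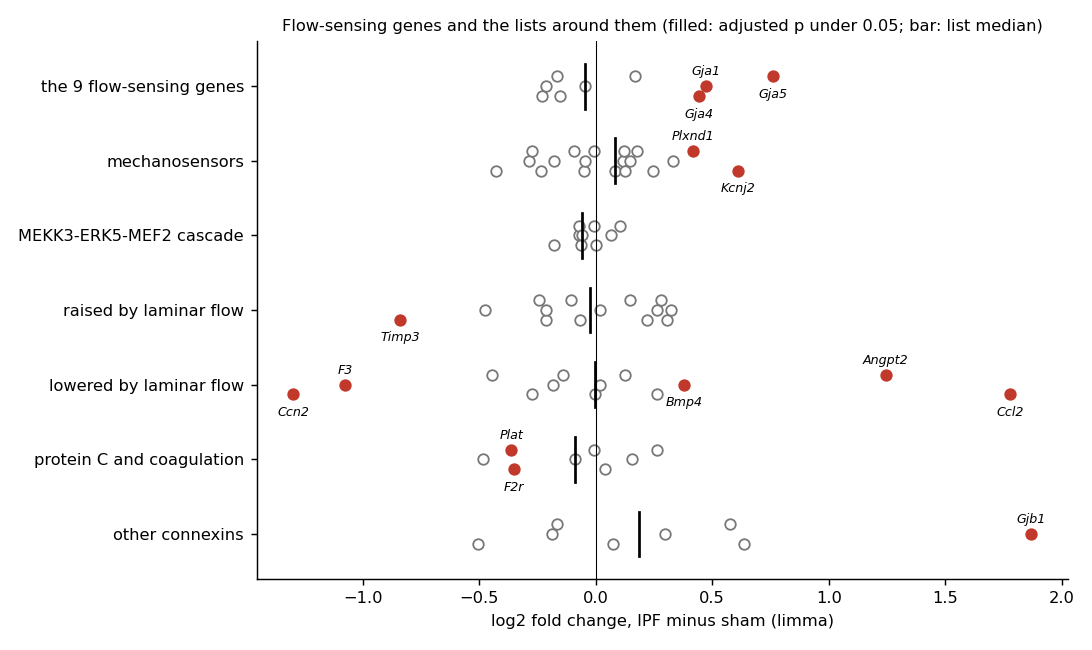
Log2 fold change, IPF minus sham, of the flow-sensing genes and of the tested genes of each list around them, with 1 circle per gene, filled where the limma adjusted p is under 0.05, and a bar at each list's median (1 called gene of the coagulation list is not drawn). The medians lie between -0.09 (protein C and coagulation) and 0.19 (other connexins), and filled circles lie on both sides of 0.

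Within the groups, the flow-sensing genes were compared by how they deviated from the group mean across the 10 lungs. Of 36 pairs none had a permutation p under 0.05 after Benjamini-Hochberg adjustment (lowest adjusted permutation p = 0.123). The related factors Klf2 and Klf4 had a Pearson r of 0.74 (permutation p = 0.0140) and a Spearman rho of 0.79 (permutation p = 0.00842), and r was 0.63 without the 2 lungs farthest from the median of Klf2. Gja1 and Gja4 had a Pearson r of 0.80 (permutation p = 0.0171) and a rho of 0.39 (permutation p = 0.263), but r was 0.06 without IPF replicate 5 and sham replicate 1, so that this relation rested on those lungs. For Gja4 and Gja5, r was 0.69 (permutation p = 0.0117) and rho 0.66 (permutation p = 0.0432), and r was 0.74 without IPF replicates 1 and 5. Gja1 and Gja5 had a Pearson r of 0.74 (permutation p = 0.00928) and a rho of 0.45 (permutation p = 0.189), and r was 0.45 without IPF replicate 5 and sham replicate 1.

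The genes most like each flow-sensing gene in these deviations were taken from 13445 genes with a mean of at least 1 FPKM, as the pair with the highest Pearson r over the 10 lungs. For the connexins they were Ncald (0.97) and Slc1a3 (0.97) for Gja1, Npas2 (0.96) and Colq (0.96) for Gja4, and Smim3 (0.94) and Tsen54 (0.94) for Gja5. Among these, Ncald (log2 fold change 0.75, limma adjusted p = 0.00296), Slc1a3 (0.38, limma adjusted p = 0.0291) and the clock gene Npas2 (3.44, limma adjusted p = 9.85e-05) were themselves higher in IPF. For the sensors they were Exph5 (0.97) and Ptpn4 (0.96) for Piezo1, and Zc2hc1c (0.96) and Fbxl8 (0.93) for Trpv4. For Mapk7 they were Cwf19l1 (0.94) and Hdac10 (0.93), for Klf2 Ints11 (0.91) and C2cd4b (0.90), for Klf4 Actr1b (0.95) and Llgl1 (0.94), and for Thbd Gm23251 (0.94) and Prr14 (0.92). Spearman's rho was 0.65 for Thbd with Gm23251, well below its r, and 0.79 to 0.99 for the other 17 pairs. These coefficients were the highest of many and carry no p. They were not computed again without IPF replicate 5, which lay far from the other IPF lungs for Gja1 and Gja4.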

How the data were processed

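Whole-lung mRNA of 10 mice (5 IPF, 5 sham) was analysed, with groups and replicate numbers taken from the sample titles. Per the methods, the authors used Fastp to trim the paired 150 bp reads, HISAT2 to align them and StringTie to quantify them. The table they deposited holds FPKM (fragments scaled by gene length and library size) for 54532 genes in each of the 10 samples. The submitters' processing notes list Bowtie 0.12.2 and the builds GRCm38, mm10 and hg38, and the methods name GRCm39, while the gene positions in the table are those of GRCm38. The methods name the KAPA mRNA HyperPrep kit and the labels NEBNext Ultra, and a strand setting is not given in the sources used here.

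Low FPKM values divided by what 1 read is worth on that gene gave whole numbers within 0.01 in 100% of those checked, so depth could be recovered (15483046 to 19026843 reads per sample). The library size implied by the worth of 1 read was not exactly this total. In IPF replicate 5, for example, it was 17692157 against 18453981 recovered reads. A gene with few reads has a wider counting error, which among the 9 genes applies most to Trpv4. Genes with a mean of at least 0.1 FPKM entered a limma fit (version 3.58.1 under R 4.3.3, moderated with a variance trend) on log2(FPKM + 0.1) of IPF against sham, without covariates, followed by Benjamini-Hochberg adjustment. Fold changes are on that scale, which understates the change of low genes. DESeq2, which the authors used, was not run, and voom was the test applied to the recovered reads. Exact permutation tests took all assignments of 5 of 10 lungs, and pairs of genes were compared with 100000 permuted pairings. Tables were made in Python 3.11.15 with pandas 2.3.3, numpy 2.4.6 and scipy 1.17.1. The fit was tested on simulated data.

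The 9 genes and the lists around them were chosen with earlier results of these data known. The text names the 9 genes, from each list around them at most 4 called genes by smallest p (or, with none called, the 1 with the smallest p), for each of the 9 the 2 genes with the highest Pearson r, and markers with a value beside a result. Exceptions are named as such, and 1 called gene of the coagulation list is not reported here. Alternatives were a pseudocount of 1 or of 0.01, a minimum mean of 1 FPKM or no minimum, scaling by median of ratios or by quantiles, centring on the pan-endothelial markers, array weights, a replicate block, a fit without variance trend, voom on the recovered reads, other limits, and leaving out each lung. Calls by groups that do not overlap, and the alternatives for pairs of genes, were chosen after seeing the data. Upstream sequences are those of RefSeq for GRCm38.p6.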

Additional observations from a re-analysis of the deposited data

Results flagged for a closer look

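Each of the 9 flow-sensing genes was checked in each group for a lung far from the other 4, as a gap to the nearest lung above 0.71 of the range of the group (Dixon's 95% limit for 5 values). Of 18 groups 3 passed, where chance alone passes about 1 in 20. IPF replicate 5 was the lowest IPF lung for Gja1 at 7.44 FPKM, with the nearest at 10.6 FPKM (0.878 of the range), and for Gja4 at 42.9 FPKM, with the nearest at 58.2 FPKM (0.725 of the range). Sham replicate 5 was the lowest sham lung for Thbd at 328 FPKM, with the nearest at 380 FPKM (0.807 of the range).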

How the results depend on the processing

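Of the 9 flow-sensing genes 3 were called in the reported fit, from 0 to 3 when a lung was left out, 0 after centring on the pan-endothelial markers, 1 without the variance trend, 1 with the replicate block, 0 with the added limit on the log2 fold change, and 1 when called by groups that do not overlap. Piezo1, Trpv4, Mapk7, Klf2, Klf4 and Thbd stayed uncalled in 21 of 21 alternative fits each. The median log2 fold change of all tested genes, 0.0016 as reported, was between -0.15 (after the centring) and 0.012 (mean of at least 1 FPKM). Gja1 was not called in 12, Gja4 in 11 and Gja5 in 5 of those 21 fits. Of all tested genes 1196 were called, from 775 (without IPF replicate 4) to 1620 (without IPF replicate 5) when a lung was left out, 2427 after the centring, 233 with the limit on the log2 fold change and 1892 at an adjusted p under 0.1. Of the genes in the lists around them 12 were called, from 8 to 15 when a lung was left out, 21 after the centring and 5 with the limit on the log2 fold change. Among pairs of flow-sensing genes 0 passed after adjustment, and 0 to 1 when a lung was left out, the 1 without IPF replicate 3.

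The groups share replicate numbers, but same-numbered lungs did not deviate together (correlations from -0.020 to 0.095). With the replicate block, which called 1045 of all genes, the limma adjusted p was 0.0986 for Gja1, 0.0361 for Gja4 and 0.0537 for Gja5, and Plxnd1 (0.0640), Ccl2 (0.0564), Junb (0.0991) and Ier2 (0.0854) were not called either. The cause of these changes was not tested. Depth limits genes with few reads, such as Trpv4 (80 to 150 reads per lung), Ccl2 (0 to 5 per sham lung) and Gjb1 (3 to 7 per sham lung).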
